A study of Mus musculus with 12 samples.

Results

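The hemidesmosome and epidermal basement membrane genes are 9 genes named by symbol, namely the integrin chains Itga6, Itgb4 and Itga3, the transmembrane collagen Col17a1, the plakins Dst and Plec, the laminin chains Lama3 and Lamb3, and the anchoring fibril collagen Col7a1. All 9 were found among the 47643 gene IDs of the deposited tables, and all 9 passed the filter on low counts in every comparison. RNA of C57BL/6 mice aged 10 weeks was sequenced in 12 poly(A) libraries, 3 in each of 4 groups. Skin KO and Epidermis KO were whole skin and epidermis of mice with a conditional Adam17 knockout (Sox9-Cre with floxed Adam17 alleles), and Skin WT and Epidermis WT were the same tissues of wild type mice. Sox9-Cre is active in the hair follicle lineage, so cells outside that lineage may keep intact Adam17. How the epidermis was separated, and whether wild type mice carried floxed alleles, is not given in the sources used here, and no label ties a group's libraries to separate animals, so p-values measure the spread between these libraries.

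Basal keratinocytes are riveted to the basement membrane by hemidesmosomes. In these junctions the α6β4 integrin and type XVII collagen cross the cell membrane, the plakins plectin and dystonin tie them to keratin filaments inside the cell, and a laminin that holds the chains of Lama3 and Lamb3 binds the integrins outside it. Type VII collagen forms the anchoring fibrils that fix the membrane to the dermis. In humans, inherited loss of any of these components except the α3 chain causes a form of epidermolysis bullosa, and loss of α3 causes a syndrome that includes fragile skin.

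Levels are given as CPM, a gene's count relative to the library total after TMM scaling. The totals ran from 12208522 to 16743144 expected counts, so that 3 counts stand for 0.179 to 0.246 CPM. Adam17, counted over the whole gene and therefore including RNA of recombined alleles, averaged 48.8 ± 6.16 CPM in Skin KO and 87.5 ± 13.3 CPM in Skin WT (SD, n = 3 each), a log2 fold change of -0.75 (edgeR adjusted p = 0.00797). It averaged 51.3 ± 5.94 CPM in Epidermis KO and 81.6 ± 4.15 CPM in Epidermis WT, a log2 fold change of -0.66 (edgeR adjusted p = 0.00213). The summed level of 7 skeletal muscle markers ran from 502 to 2484 CPM in Skin KO and from 6737 to 54609 CPM in Skin WT, the highest being Skin WT 1. In the epidermis libraries that sum was at most 16.5 CPM in Epidermis KO and 5.53 CPM in Epidermis WT. The 6 fibroblast markers summed to between 59.8 and 112 CPM in Epidermis KO and to between 5.87 and 10.5 CPM in Epidermis WT, against at least 689 CPM in every whole skin library. The endothelial marker Emcn was at 0 in all 3 Epidermis WT libraries. Reads of 4 Y-linked genes were present in Skin KO 1, Skin KO 3 and all Epidermis KO libraries and in none of the 6 wild type libraries. They numbered 1781, 213 and 679 in Epidermis KO 1 to 3, so Y-linked reads and genotype go together in the epidermis libraries. Reads of the X-linked gene Xist numbered 0, 2511 and 2050 in Epidermis KO 1 to 3 and 1719 to 3222 in Epidermis WT. In a fit with the share of Y-linked reads as a covariate, 5 of the 7 members called in epidermis passed. That share was 0 in all wild type libraries. The fit therefore cannot fully separate sex from genotype, since the share varied among knockout libraries only. In whole skin Skin KO 2 is the only knockout library without Y-linked reads.

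The upstream sequence of the members whose RNA was lower in the knockout in both tissues and for which RefSeq has a promoter entry is printed first, since these windows lie next to the starts of the transcripts described afterwards. All are mouse GRCm38.p6 sequence from RefSeq, 5′ to 3′ on the gene's strand, cut back where needed so that no annotated exon of the gene is included. Capitals mark TATAAA or GGGCGG. The Col17a1 window is chr19:47692095-47692292 (minus strand), directly upstream of the gene. The Lamb3 window is chr1:193301744-193301992 (plus strand), inside the gene's annotated span and upstream of an internal start. The Dst windows are chr1:34011345-34011594 and chr1:34160010-34160259 (both plus strand), each inside the span of the gene and upstream of a different start.
Col17a1: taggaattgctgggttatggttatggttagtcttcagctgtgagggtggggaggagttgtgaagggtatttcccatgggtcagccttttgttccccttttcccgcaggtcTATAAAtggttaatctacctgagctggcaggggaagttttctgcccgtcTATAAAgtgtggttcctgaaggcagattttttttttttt
Lamb3: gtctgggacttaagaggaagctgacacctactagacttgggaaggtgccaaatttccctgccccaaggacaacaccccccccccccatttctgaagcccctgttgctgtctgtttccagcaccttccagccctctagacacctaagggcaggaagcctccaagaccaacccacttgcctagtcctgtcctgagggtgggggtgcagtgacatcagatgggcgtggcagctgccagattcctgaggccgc
Dst, upstream start: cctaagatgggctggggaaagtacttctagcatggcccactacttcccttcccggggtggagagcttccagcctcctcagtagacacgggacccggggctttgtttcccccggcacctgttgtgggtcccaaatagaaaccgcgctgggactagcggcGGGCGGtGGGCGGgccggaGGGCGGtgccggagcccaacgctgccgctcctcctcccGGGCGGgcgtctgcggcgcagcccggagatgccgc
Dst, inner start: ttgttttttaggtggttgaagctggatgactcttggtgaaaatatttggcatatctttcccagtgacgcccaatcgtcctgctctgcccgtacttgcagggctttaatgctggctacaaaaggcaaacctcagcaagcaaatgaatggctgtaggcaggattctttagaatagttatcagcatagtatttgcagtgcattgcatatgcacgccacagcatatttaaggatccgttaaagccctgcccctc
The AP-1 motif TGANTCA and the AP-2 motif GCCNNNGGC, searched on both strands, were in none of the 8 windows of 250 bases available for 5 members, against 6.75% and 13.7% of 32851 mouse promoter windows of that length. TATAAA occurred at 2 places in the Col17a1 window and in no other member's window, and 12.4% of all windows held it. GGGCGG, the core of the Sp1 motif, was present at 4 places in the upstream Dst window, at 3 and 1 in the Itga3 windows, at 1 in the Col7a1 window, and in 32.7% of all windows. A match is a description of letters and not of binding.

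In whole skin the messages of 4 members, Dst, Col17a1, Plec and Lamb3, were between 1.64-fold and 4.05-fold lower in the knockout, and none was higher. In epidermis 7 were lower, and there Lamb3 (4.16-fold), Dst (4.15-fold) and Col17a1 (3.62-fold) stood ahead of Col7a1, Itga3, Itgb4 and Itga6. Lama3 did not pass in either tissue. Both comparisons touched a large part of the transcriptome. In skin 23.3% of 14906 genes tested were lower and 22.2% higher, and in epidermis 25.3% of 13632 were lower and 26.2% higher, by edgeR's quasi-likelihood test at an adjusted p under 0.05. Beside these shares, 4 of 9 members were lower in skin and 7 of 9 in epidermis. The members' median log2 fold change was -0.41 in skin and -1.30 in epidermis, beside -0.00 and 0.00 for all genes tested. In bulk tissue, fewer basal keratinocytes and less RNA per cell cannot be told apart. The summed level of 4 basal keratinocyte markers was 16015 to 20727 CPM in Skin KO and 13204 to 14975 CPM in Skin WT, and 11643 to 15765 CPM in Epidermis KO and 26846 to 33151 CPM in Epidermis WT. Of these markers Krt15 fell in both tissues, with a log2 fold change of -2.83 in skin and -3.43 in epidermis, while Krt14 rose in skin (1.49) and Krt5 fell in epidermis (-1.12). Krt5 in skin (0.35), Krt14 in epidermis (-0.23) and Trp63 in both tissues (-0.29 each) did not pass. The summed level of 5 suprabasal markers was 30997 to 35878 CPM in Skin KO and 17701 to 23595 CPM in Skin WT. In epidermis it was 53449 to 78274 CPM in Epidermis KO and 33710 to 41356 CPM in Epidermis WT. The suprabasal markers did not move together. Krt1 rose in both tissues (log2 fold change 2.87 in skin, 2.70 in epidermis) and Lor fell in both (-2.79 and -4.36). In skin Ivl rose (0.89) and Dsg1a fell (-1.41). Krt10 in both tissues (0.29 and 0.35) and Ivl (0.24) and Dsg1a (-0.34) in epidermis did not pass. The part of these markers in the members' differences was not tested.

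**Figure D1:**
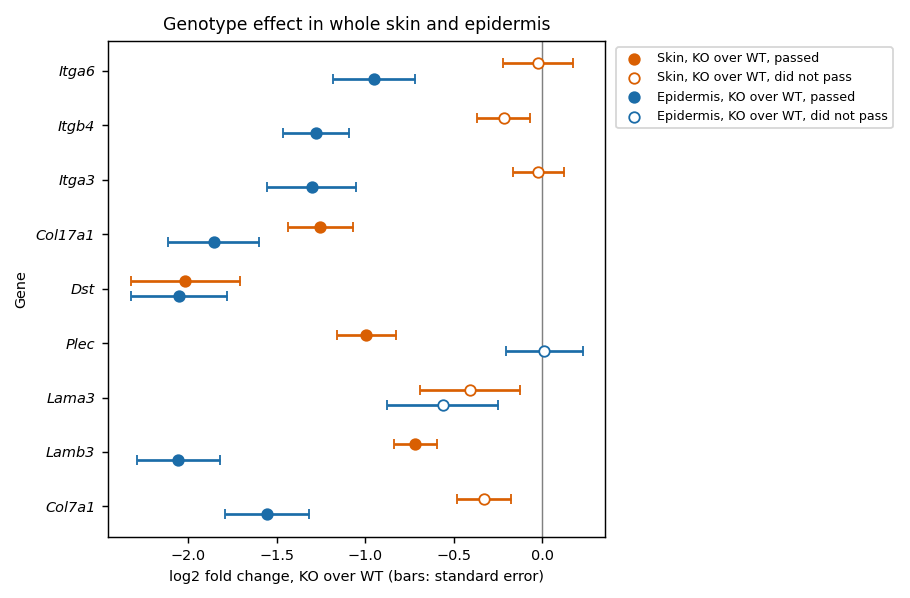
Log2 fold change of each gene, KO over WT, in whole skin (orange) and epidermis (blue), with standard errors as bars and filled points where edgeR's adjusted p was under 0.05. Dst and Lamb3 reach about the same value in epidermis (-2.05 and -2.06) while only Dst does so in skin.

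The integrin chains differed between genotypes in epidermis and not, at the test's threshold, in whole skin. Itga6 (ENSMUSG00000027111.15, chr2:71745616-71858416) encodes the α6 chain, which pairs with β4 in the hemidesmosome. Its level was 107, 118 and 150.0 CPM in Epidermis KO 1 to 3, against 285, 287 and 162 CPM in Epidermis WT 1 to 3. The groups did not overlap, but Epidermis WT 3 lay close to Epidermis KO 3. The log2 fold change was -0.95 ± 0.23 (SE; edgeR adjusted p = 0.00864). In whole skin Itga6 measured 201, 237 and 235 CPM in Skin KO and 174, 273 and 285 CPM in Skin WT. Skin WT 1 was the lowest of all 6 and the groups overlapped (log2 fold change -0.03 ± 0.20, edgeR adjusted p = 0.925).

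Itgb4 (ENSMUSG00000020758.15, chr11:115974709-116008412) encodes the β4 chain, whose long cytoplasmic tail binds plectin. It measured 100.1, 89.2 and 138 CPM in Epidermis KO and 295, 281 and 227 CPM in Epidermis WT. Every knockout library was below every wild type library, and the log2 fold change was -1.28 ± 0.19 (SE; edgeR adjusted p = 0.000698). In whole skin it measured 125, 138 and 138 CPM in Skin KO and 132, 177 and 188 CPM in Skin WT. These groups overlapped through Skin WT 1 (log2 fold change -0.22 ± 0.15, edgeR adjusted p = 0.278), and without that library Itgb4 passed (-0.37, edgeR adjusted p = 0.0206). Itga3 (ENSMUSG00000001507.16, chr11:95044474-95076801) encodes the α3 chain, a laminin receptor chain that pairs with β1 outside hemidesmosomes. It measured 37.4, 38.2 and 71.5 CPM in Epidermis KO and 131, 134 and 101 CPM in Epidermis WT, with Epidermis KO 3 well above the other knockout libraries and still below the wild type. The log2 fold change was -1.30 ± 0.25 (SE; edgeR adjusted p = 0.00292). In whole skin the groups overlapped, with 62.1 to 75.8 CPM in Skin KO and 63.1 to 84.0 CPM in Skin WT. With the share of Y-linked reads as a covariate, Itga6 and Itga3 no longer passed in epidermis, at log2 fold changes of -0.80 ± 0.35 and -1.11 ± 0.39 (SE; edgeR adjusted p = 0.112 and 0.0626). Over all alternatives run in epidermis the log2 fold change ran from -1.19 to -0.80 for Itga6 and from -1.68 to -1.11 for Itga3.

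**Figure D2:**
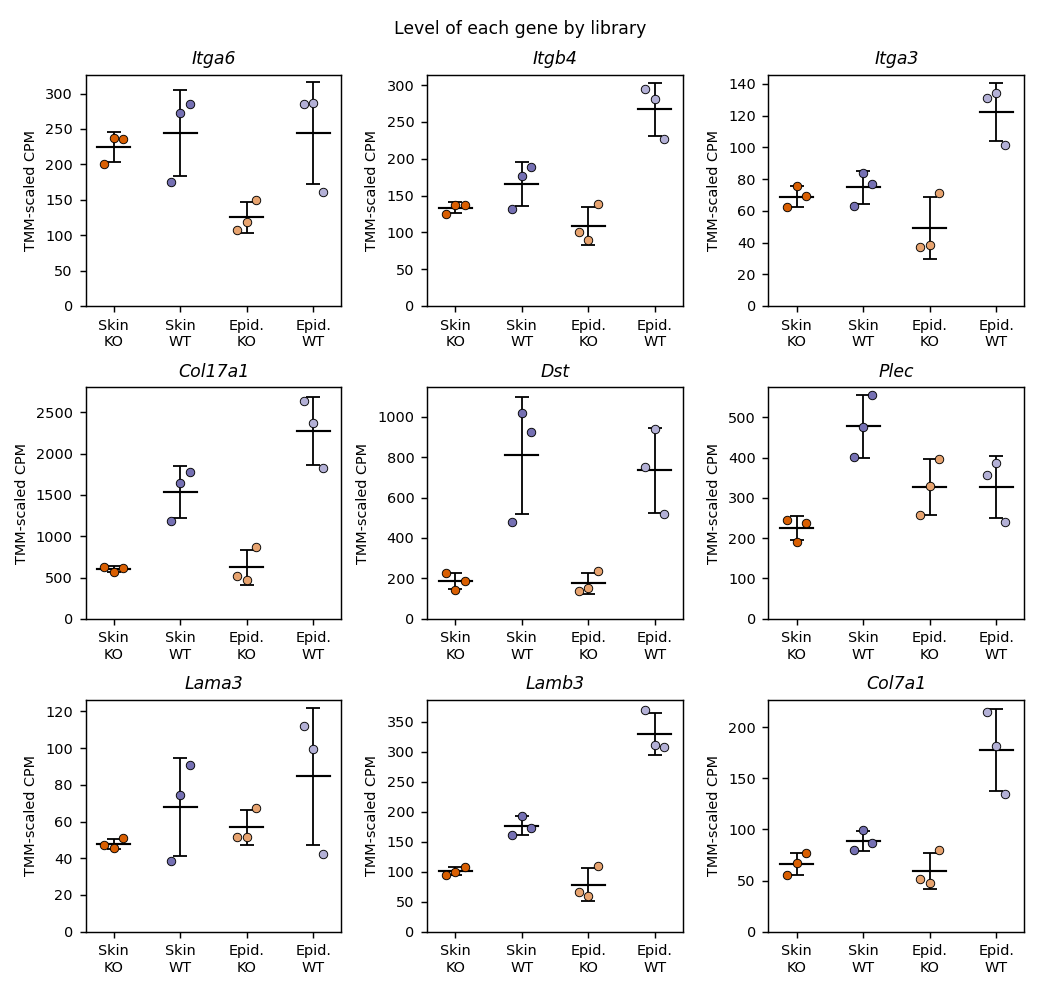
TMM-scaled CPM of the 9 genes in each library, one panel per gene, with points for libraries and lines and bars for the mean and SD of 3 (Epid. stands for epidermis). Epidermis KO lies below Epidermis WT without overlap in 7 panels, and in those panels Epidermis KO 3 is the highest of its group.

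The messages of type XVII collagen and dystonin fell in both tissues, by between 2.38-fold and 4.15-fold. Col17a1 (ENSMUSG00000025064.14, chr19:47646344-47692094) encodes a transmembrane collagen whose ectodomain is shed from keratinocytes by ADAM proteases, ADAM17 among them, so here a substrate's message was read and not its shedding. It measured 624, 566 and 619 CPM in Skin KO and 1182, 1649 and 1774 CPM in Skin WT. The groups were far apart, with a log2 fold change of -1.25 ± 0.19 (SE; edgeR adjusted p = 0.00216). In epidermis it measured 525, 475 and 867 CPM in Epidermis KO and 2636, 2367 and 1824 CPM in Epidermis WT. Again no library crossed over, and the log2 fold change was -1.86 ± 0.26 (SE; edgeR adjusted p = 0.000554).

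Dst (ENSMUSG00000026131.17, chr1:33908225-34308661) encodes dystonin, whose epithelial form, the bullous pemphigoid antigen BPAG1e, links hemidesmosomes to keratin, and whose longer forms belong to muscle and nerve. It measured 227, 145 and 189 CPM in Skin KO and 481, 1019 and 927 CPM in Skin WT. Skin WT 1, the library with the most muscle RNA, was the lowest of the wild type and still above all knockout libraries. The log2 fold change was -2.02 ± 0.31 (SE; edgeR adjusted p = 0.00250). In epidermis, where muscle markers were near 0, Dst measured 136, 153 and 236 CPM in Epidermis KO and 751, 937 and 518 CPM in Epidermis WT. The groups did not overlap and the log2 fold change was -2.05 ± 0.27 (SE; edgeR adjusted p = 0.000443). The 2 genotype effects on Dst differed by 0.04 ± 0.44 on the log2 scale (SE; edgeR adjusted p = 0.961), an error wide enough to hide a difference in either direction.

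The other plakin fell in skin and did not pass in epidermis. Plec (ENSMUSG00000022565.15, chr15:76170974-76232574) encodes plectin, which binds β4 and keratin and is also made in muscle and fibroblasts. It measured 246, 191 and 237 CPM in Skin KO and 401, 476 and 556 CPM in Skin WT, with no overlap, and the log2 fold change was -0.99 ± 0.17 (SE; edgeR adjusted p = 0.00351). In epidermis it measured 257, 328 and 395 CPM in Epidermis KO and 356, 386 and 240.0 CPM in Epidermis WT. There the groups were interleaved, with a log2 fold change of 0.01 ± 0.22 (SE; edgeR adjusted p = 0.966), and that direction turned to -0.14 with scaling to epithelial genes. Beside the fall of Plec in skin, the summed levels of muscle (above), fibroblast (689 to 1595 CPM in Skin KO, 1811 to 2446 CPM in Skin WT), adipocyte (137 to 308 CPM in Skin KO, 1475 to 1926 CPM in Skin WT), Schwann cell (80.5 to 94.5 CPM in Skin KO, 256 to 281 CPM in Skin WT) and endothelial markers (23.8 to 32.9 CPM in Skin KO, 72.8 to 91.0 CPM in Skin WT) were lower too, and their part in it was not tested.

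Of the members that encode laminin chains, Lamb3 fell in both tissues and Lama3 passed in neither. Lamb3 (ENSMUSG00000026639.18, chr1:193207699-193343878) encodes the β3 chain. It measured 66.0, 59.1 and 110.2 CPM in Epidermis KO and 369.9, 311 and 309 CPM in Epidermis WT, with no overlap. The log2 fold change was -2.06 ± 0.23 (SE; edgeR adjusted p = 0.000212). In whole skin it measured 94.9, 98.7 and 108 CPM in Skin KO and 162, 194 and 174 CPM in Skin WT, with no overlap and a log2 fold change of -0.72 ± 0.12 (SE; edgeR adjusted p = 0.00350).

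Lama3 (ENSMUSG00000024421.16, chr18:12333819-12583013) encodes the α3 laminin chain, which carries the laminin's integrin binding site. It measured 51.4, 51.5 and 67.6 CPM in Epidermis KO and 112, 99.5 and 42.1 CPM in Epidermis WT. Epidermis WT 3 was the lowest of all 6, and the difference did not pass (log2 fold change -0.56 ± 0.31, edgeR adjusted p = 0.163). Without Epidermis WT 3 it did, at -0.89 (edgeR adjusted p = 0.00347). The same held in whole skin, where Lama3 measured 47.2, 45.3 and 51.0 CPM in Skin KO and 38.5, 74.2 and 90.9 CPM in Skin WT. The lowest value was that of Skin WT 1, the log2 fold change was -0.41 ± 0.28 (edgeR adjusted p = 0.273), and without Skin WT 1 it was -0.70 (edgeR adjusted p = 0.00526).

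Col7a1 (ENSMUSG00000025650.12, chr9:108953586-108984875) encodes type VII collagen, which keratinocytes and fibroblasts both make. It measured 51.1, 47.8 and 80.0 CPM in Epidermis KO and 215, 182 and 135 CPM in Epidermis WT. Every knockout library was lower, and the log2 fold change was -1.56 ± 0.24 (SE; edgeR adjusted p = 0.000864). In whole skin it measured 55.5, 66.7 and 76.5 CPM in Skin KO and 80.0, 99.7 and 86.3 CPM in Skin WT. The skin groups did not overlap, but the difference did not pass (log2 fold change -0.33 ± 0.15, edgeR adjusted p = 0.124). In skin 5 members had no overlap with the knockout lower, as did 32.2% of all genes tested, and in epidermis 7 did, beside 31.6% of all genes.

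Limits of the skin result are its scaling and its libraries. With scaling to epithelial genes, which set the median of all genes at -0.46 on the log2 scale and gave a split over all genes of 1496 higher and 6070 lower, against 3310 and 3470 in the reported fit, all 9 members were lower in Skin KO. With Skin KO 2 as the only knockout library, Dst passed and Lamb3, Col17a1 and Plec did not (log2 fold changes -0.72, -1.32 and -1.20, edgeR adjusted p = 0.117, 0.0709 and 0.0601). In epidermis the same scaling kept the count at 7, with a median of all genes of -0.15 and a split of 2783 higher and 4481 lower, against 3570 and 3444 in the reported fit.

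Whether the RNA difference between genotypes was unlike in the tissues was tested as the genotype effect in epidermis minus that in skin, in 1 fit of all 12 libraries. Whole skin also holds muscle, fibroblasts and adipocytes, whose marker sums given above were lower in Skin KO. Their part in these differences was not tested. Of 15394 genes tested 10.1% had a higher and 6.36% a lower effect in epidermis. Among the members 4 were lower and 1 was higher. Lamb3 differed by -1.26 ± 0.28 (SE; edgeR adjusted p = 0.0135), Itga3 by -1.20 ± 0.33 (adjusted p = 0.0294), Col7a1 by -1.15 ± 0.31 (adjusted p = 0.0286) and Itgb4 by -0.98 ± 0.26 (adjusted p = 0.0258) on the log2 scale, each lowered more in epidermis than in skin. Plec differed by 1.09 ± 0.30 (edgeR adjusted p = 0.0304), with a fall in skin and 0.01 in epidermis, and did not pass with the replicate block (1.06, adjusted p = 0.0513). For Itga6 (-0.85 ± 0.34, edgeR adjusted p = 0.106), Col17a1 (-0.52, adjusted p = 0.297) and Lama3 (-0.07, adjusted p = 0.939) no difference passed. The call of Lamb3 held under every alternative run, with adjusted p between 0.000272 and 0.0359. The other 4 calls lay close to the threshold, and the values in brackets that follow are their edgeR adjusted p. All 4 were lost without Skin KO 2, Skin KO 3 or Epidermis KO 2, with edgeR adjusted p of at most 0.0799. Without Skin WT 3, Plec, Itga3 and Col7a1 were lost (0.0769, 0.0628 and 0.0685). Without Epidermis WT 1 (0.0596, 0.0640 and 0.0671) or Epidermis KO 1 (0.0511, 0.0555 and 0.0581), Itgb4, Itga3 and Col7a1 were lost. Without Epidermis WT 2, Itga3 and Col7a1 were lost (0.0580 and 0.0519), and without Epidermis WT 3 or Epidermis KO 3, Plec was (0.0600 and 0.0702). Itga6 passed in 2 of 20 alternatives, among them that without Epidermis WT 3 (0.0393). No sign changed among these 5 members. With scaling to epithelial genes Itga3 and Col7a1 missed the threshold (0.0519 and 0.0574), and that scaling set the median of all genes at 0.30 and the split at 2528 higher and 405 lower, against 1560 and 979.

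Epidermis was set against whole skin within each genotype to see where the messages sit. In the wild type, 4 members were higher in epidermis, namely Lamb3 (log2 difference 0.88 ± 0.15), Col7a1 (0.97 ± 0.19), Itga3 (0.69 ± 0.16) and Itgb4 (0.67 ± 0.18, each ± SE, edgeR adjusted p between 0.00268 and 0.0181), and none was lower, where 17.6% of 14596 genes were higher and 25.3% lower. With scaling to epithelial genes none of these 4 passed and Plec was lower (-1.09, edgeR adjusted p = 0.00555), the median of all genes being -0.60 and the split 563 higher and 7127 lower, against 2563 and 3697. Itgb4 also missed the threshold without Epidermis WT 1 (edgeR adjusted p = 0.0696) or Epidermis WT 2 (adjusted p = 0.0574). Col17a1 was higher in all Epidermis WT libraries than in any Skin WT library, as were 27.5% of all genes, without passing (0.55 ± 0.22, edgeR adjusted p = 0.0803). It passed in 1 of 15 alternatives. Plec was lower in all Epidermis WT libraries than in any Skin WT library, as were 29.0% of all genes, also without passing (-0.57 ± 0.21, edgeR adjusted p = 0.0628). It passed in 4 of 15 alternatives, among them that without Skin WT 1 (-0.65, edgeR adjusted p = 0.0357). Itga6 (-0.02 ± 0.26), Dst (-0.16 ± 0.31) and Lama3 (0.30 ± 0.40) had overlapping groups.

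In the knockout only Itga6 separated the tissues at the threshold, with 107 to 150.0 CPM in Epidermis KO and 201 to 237 CPM in Skin KO (log2 difference -0.85 ± 0.14, edgeR adjusted p = 0.00575), where 15.9% of 14117 genes were lower and 14.1% higher. Plec was higher in each Epidermis KO library than in any Skin KO library, as were 24.3% of all genes, without passing (0.54 ± 0.17, edgeR adjusted p = 0.0526). It passed in 4 of 15 alternatives, among them that without Epidermis KO 1 (0.69, edgeR adjusted p = 0.0224). Epidermis KO 3 was the highest library of its group for all 9 members. Without it Lamb3 (-0.68, edgeR adjusted p = 0.0133), Itgb4 (-0.49, adjusted p = 0.0241) and Itga3 (-0.87, adjusted p = 0.0106) were lower in knockout epidermis as well. Scaling to epithelial genes called Lamb3, Itgb4 and Itga3 beside Itga6, with a median of all genes of -0.32 and a split of 665 higher and 5590 lower, against 1989 and 2238.

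Per transcript length the 9 messages kept the same top and bottom by mean in every group. The deposited TPM, which correct for transcript length and library total, put Col17a1 first, at 155 ± 11.5 TPM in Skin KO, 419 ± 142 TPM in Skin WT, 118 ± 56.5 TPM in Epidermis KO and 427 ± 113 TPM in Epidermis WT (SD, n = 3 each), without overlap with the next gene in any group. Lama3 was last by mean in all 4 groups, at 11.6 ± 1.05 TPM in Skin KO, 17.2 ± 8.49 TPM in Skin WT, 9.89 ± 2.97 TPM in Epidermis KO and 14.8 ± 7.16 TPM in Epidermis WT. Its range overlapped that of the gene above it in every group but Skin KO. Dst had rank 2 in both wild type groups, at 143 ± 63.8 TPM in Skin WT and 91.1 ± 36.7 TPM in Epidermis WT, though its range overlapped that of Itga6, the third. In the knockout it had rank 5 in skin (32.9 ± 6.81 TPM) and rank 4 in epidermis (22.2 ± 9.57 TPM), and Itga6 had rank 2 at 85.2 to 102 TPM in Skin KO and 26.8 to 50.8 TPM in Epidermis KO. Most neighbours further down did not differ beyond their spread. The exceptions were Itga6 over Lamb3 and Itga3 over Lama3 in Skin KO, Col7a1 over Itga3 in Skin WT, and Itgb4 over Itga3 in Epidermis WT. The 9 members together held 0.172% to 0.195% of counts in Skin KO and 0.264% to 0.477% in Skin WT, and 0.109% to 0.207% in Epidermis KO and 0.302% to 0.478% in Epidermis WT.

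**Figure D3:**
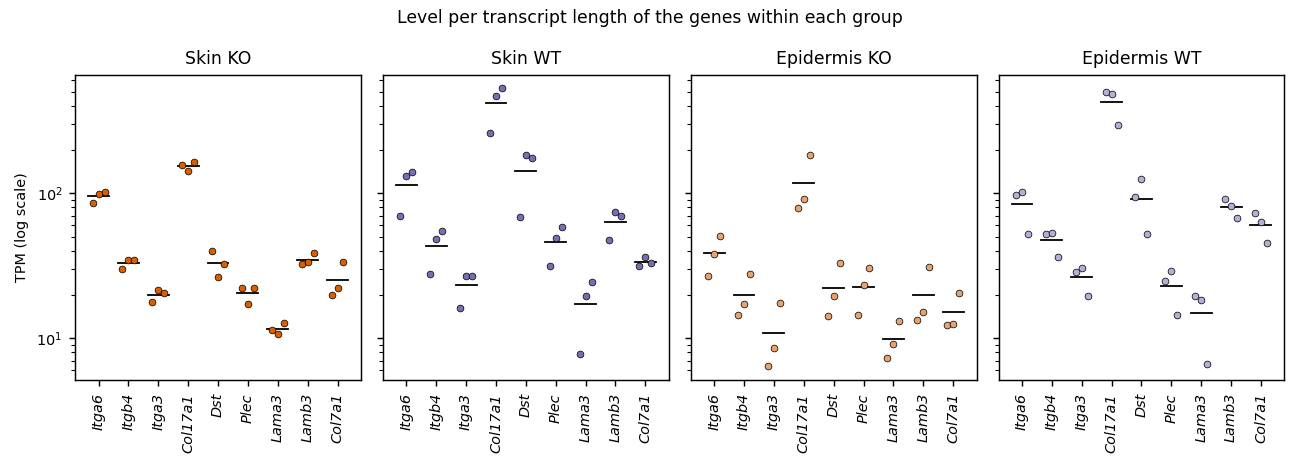
TPM (log scale) of the 9 genes in each group, with a point per library and a line at the mean of 3. By mean, Col17a1 is highest and Lama3 lowest in all 4 panels, and Dst, of rank 2 in the wild type panels, lies among the middle genes in the knockout panels.

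Ratios within a library compare partner chains without any scaling between libraries. The smallest two-sided exact permutation p that 3 against 3 libraries allow is 0.1, and 5 ratios were compared between genotypes in 2 tissues. Of these 10 comparisons 5 had no overlap, each with an exact permutation p of 0.1 (0.2 after Benjamini-Hochberg adjustment). The Lama3 to Lamb3 TPM ratio was 0.546, 0.602 and 0.422 in Epidermis KO, against 0.213, 0.224 and 0.0973 in Epidermis WT. The ratio was 3.10-fold higher in Epidermis KO, a log2 difference of 1.63, which was 1.24 when Epidermis WT 3 was left out. In whole skin the same ratio overlapped, at 0.350, 0.318 and 0.330 in Skin KO and 0.165, 0.261 and 0.350 in Skin WT (exact p = 0.3).

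The Plec to Dst ratio was higher in the knockout in both tissues, without overlap. It was 1.02, 1.18 and 0.929 in Epidermis KO, against 0.262, 0.232 and 0.276 in Epidermis WT, a 4.05-fold difference. In whole skin it was 0.558, 0.654 and 0.685 in Skin KO and 0.456, 0.266 and 0.337 in Skin WT, 1.83-fold higher. The Itga6 and Itgb4 chains form the hemidesmosomal integrin together. The Itga6 to Itgb4 ratio was 2.83, 2.88 and 2.94 in Skin KO and 2.52, 2.75 and 2.55 in Skin WT, 1.11-fold higher with no overlap. In epidermis it overlapped, at 1.86, 2.22 and 1.83 in Epidermis KO and 1.86, 1.92 and 1.43 in Epidermis WT (exact p = 0.6).

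**Figure D4:**
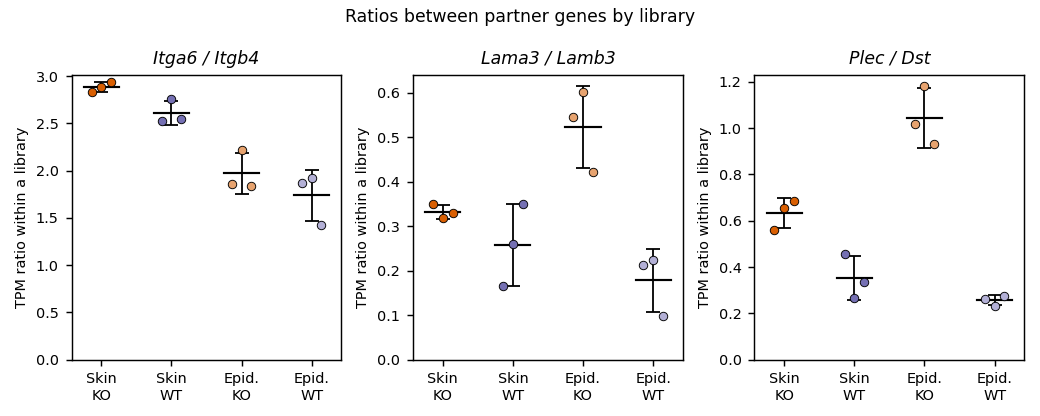
TPM ratios of partner genes within each library, with a point per library and the mean and SD of 3 (Epid. stands for epidermis). The Plec to Dst and Lama3 to Lamb3 ratios are highest in Epidermis KO, and the Itga6 to Itgb4 ratio overlaps between genotypes in epidermis and not in skin.

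The deposited tables also give each gene's transcript length averaged over its isoforms by their estimated abundance, which moves when isoform use moves. For Dst it was 7720, 7384 and 8141 bases in Skin KO and 8122, 8436 and 8440.5 bases in Skin WT. The groups overlapped by a single pair of libraries (exact permutation p = 0.2, two-sided). In epidermis it was 7708, 8026 and 8058 bases in Epidermis KO and 7758, 7820 and 8509 bases in Epidermis WT (exact permutation p = 0.8). The mean length was higher in all Epidermis KO than in all Epidermis WT libraries for 4 members, as it was for 15.7% of the genes tested whose length varied. Of 18 comparisons of length between genotypes 5 had no overlap, each with an exact permutation p of 0.1 (0.36 after Benjamini-Hochberg adjustment). Since 0.1 is the smallest exact p that 3 against 3 libraries allow, no comparison of length could pass. The mean length of Itga6 was 3279 to 3424 bases in Epidermis KO and 2811 to 3054 bases in Epidermis WT. That of Col7a1 was 3459 to 4489 bases in Epidermis KO and 2703 to 3124 bases in Epidermis WT. The other members of this kind were Plec and Itga3. In whole skin the only member without overlap was Lama3, at 5692 to 5766 bases in Skin KO and 5803 to 5988 bases in Skin WT, and 8.59% of such genes were lower there without overlap.

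Of 10 further laminin chains and ligands tested in skin none was higher and 5 were lower, beside 22.2% and 23.3% of all genes. The median log2 fold change of the 10 was -0.68. Among them were Lamb2 (37.9 ± 6.72 CPM in Skin KO, 84.5 ± 11.5 CPM in Skin WT, log2 fold change -1.07), a chain of vascular and neuromuscular laminins, Lama2 (-1.86), the chain of muscle basement membranes, Lamb1 (-0.84) and Egfl6 (-2.71), a matrix ligand made by follicle epithelium. The muscle, endothelial and fibroblast marker sums given above were lower in the same Skin KO libraries, and their part was not tested. Of 9 tested in epidermis 2 were higher and 2 lower, beside 26.2% and 25.3% of all genes, with a median of 0.10. Lama4, a chain of vessel laminins, rose (11.9 ± 2.996 CPM in Epidermis KO, 3.54 ± 0.379 CPM in Epidermis WT, 1.77), as did Ntn4 (0.66), a netrin of basement membranes, and Egfl6 (-2.61) and Lama5 (-1.13) fell. Beside the rise of Lama4, Pecam1, the only endothelial marker tested in epidermis, rose (2.29), as did 5 of 5 fibroblast markers tested, and their part was not tested.

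Among the basement membrane network genes in skin, 2 of 17 tested were higher and 11 lower, beside 22.2% and 23.3% of all genes. The median log2 fold change of the 17 was -1.58. The lower genes included the nidogen Nid2 (-2.86), the matrix linker Ecm1 (-1.58) and the type IV collagen chains Col4a2 (-1.88) and Col4a1 (-1.61). The fibroblast, endothelial, muscle, adipocyte and Schwann cell marker sums given above were all lower in Skin KO without overlap, and their part in these falls was not tested. In epidermis 5 of 15 were higher and 8 lower, beside 26.2% and 25.3% of all genes, with a median of -0.96. Sparc (-1.54), Ecm1 (-1.72) and the type IV chain Col4a6 (-2.16) fell, and Nid1 rose (4.81 ± 2.22 CPM in Epidermis KO, 0.362 ± 0.299 CPM in Epidermis WT, 3.75). Nid1 is made largely by mesenchymal cells, whose markers rose in Epidermis KO as given for Lama4, and their part was not tested. The Epidermis WT level of Nid1 lay near that of 3 counts, so the size of its fold in epidermis is uncertain. In whole skin Nid1 went the other way. It averaged 21.6 ± 10.7 CPM in Skin KO and 92.3 ± 35.7 CPM in Skin WT (SD, edgeR adjusted p = 0.00814).

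Other integrins and their partners went in both directions. In skin 2 of 13 tested were higher and 4 lower, beside 22.2% and 23.3% of all genes. In epidermis 4 of 12 were higher and 5 lower, beside 26.2% and 25.3% of all genes. Itgb8, the chain that activates TGFβ, rose in skin (1.33) and epidermis (2.16). The tetraspanins Cd9 (-0.98) and Cd151 (-0.64), which associate with laminin-binding integrins, fell in epidermis, and the fibronectin receptor chain Itga5 rose there (1.17). In skin Kank2 (-1.40), Itgb5 (-0.70) and Itga9 (-1.24) fell. Of the focal adhesion plaque genes 3 of 14 were higher and 3 lower in skin, and 2 of 13 higher and 2 lower in epidermis. Beside these counts stand the same shares of all genes as for the integrins. Fermt2 (-2.03), Parvb (-2.10) and Ilk (-0.61) fell in skin and Actn4 rose (0.71), and in epidermis Vcl (2.19) and Parva (0.82) rose while Ilk (-1.02) and Tns4 (-0.42) fell. Of the genes that fell in skin, Kank2, Itga9, Fermt2 and Parvb averaged only 2.91, 0.110, 2.82 and 0.121 CPM in Epidermis WT. Itgb5 and Ilk averaged 141 and 67.8 CPM there. The fibroblast, muscle and endothelial marker sums were lower in Skin KO, and their part in these falls was not tested.

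Of the genes of wound keratinocyte adhesion and matrix enzymes, 5 of 14 tested were higher and 2 lower in skin, beside 22.2% and 23.3% of all genes, with a median log2 fold change of 0.27. In epidermis 9 of 13 were higher and 2 lower, beside 26.2% and 25.3% of all genes, with a median of 1.22, and the fibroblast markers rose in the same libraries. Their part was not tested. Tnc, the matrix glycoprotein tenascin C of healing wounds, rose in skin (94.98 ± 24.2 CPM in Skin KO, 11.3 ± 4.51 CPM in Skin WT, log2 fold change 3.17) and in epidermis (1.96). Plaur, the urokinase receptor, rose in skin (2.28), and Plau, urokinase itself, in epidermis (1.28). The sheddase Adam10, the closest relative of Adam17, rose in epidermis (97.2 ± 7.41 CPM in Epidermis KO, 42.1 ± 3.51 CPM in Epidermis WT, 1.22, edgeR adjusted p = 9.04e-05). Tgm2 fell in skin (-1.82) and rose in epidermis (10.9 ± 10.5 CPM in Epidermis KO, 2.22 ± 0.312 CPM in Epidermis WT, 2.32, edgeR adjusted p = 0.0138).

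To describe how alike the 9 patterns were, mean log2 CPM of the 4 groups, centred per gene, were compared by their root mean square difference among 9370 genes with at least 10 CPM on average. The closest pair of members was Itgb4 and Itga3 (0.0909). Col7a1 was nearest to Itgb4 (0.148), and Lamb3 and Col17a1 to each other (0.200). Dst was nearest to Col17a1 (0.330), and Plec to Lama3 (0.320). Outside the members the nearest gene was Tgfbi for Col17a1 (0.0653), S100a10 for Lamb3 (0.0724), Ablim3 for Dst (0.113), Bmp1 for Itga6 (0.0328), P3h2 for Itgb4 (0.0404), Rin1 for Itga3 (0.0365), Bcam for Col7a1 (0.0815), Lamb2 for Plec (0.0365) and Bicdl1 for Lama3 (0.00579). These names describe the shape of a profile over 4 group means and nothing further.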

How the data were processed

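The authors deposited RSEM expected counts and TPM per gene, with transcript lengths in bases (an other-unit column), after STAR 2.5.1 alignment to mm10 and bcl2fastq 2.17, per the submitters' processing notes. The libraries were made with a TruSeq Stranded mRNA kit, per the labels' protocols. Neither the annotation release nor whether counting used strand is stated in the sources used here. Between 8.42% and 9.98% of a library's deposited expected counts were not whole (beyond 0.001), and they were rounded. IDs were named from GENCODE mouse release M21 without version (47224 of 47643 matched).

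The members and the gene lists were chosen with earlier results of these data known. Each comparison used edgeR 4.0.16 in R 4.3.3 (TMM, filterByExpr, quasi-likelihood test, Benjamini-Hochberg adjustment over all genes tested, threshold 0.05) on the 6 libraries compared, or on all 12 for the difference between tissues. The standard error is the log2 fold change over the square root of F. CPM are TMM-scaled over all 12 libraries, and ratios and orders use the deposited TPM with exact permutation tests. 1 gene of the laminin list is not reported here, and it was left out of that list's counts and of the ratios. From each adhesion or matrix list up to 4 genes with the smallest adjusted p per tissue were named where their wild type level allowed a fold. The script was tested on simulated data. Alternatives were DESeq2 1.42.0, limma-voom 3.58.1, other scalings and filters, a replicate block, the share of Y-linked reads, and leaving out libraries.

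Knockout and wild type libraries of the same number deviated together in skin (correlations across genes of 0.339, 0.359 and 0.206). A pairing of skin libraries by number rests on these correlations alone, no label saying so. The reported tests are unpaired, and the replicate block was run as an alternative only. In epidermis the correlations were 0.0745, 0.140 and -0.0550, and the samples share only a number. The level of 3 counts covers counting error only.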

Additional observations from a re-analysis of the deposited data

Results flagged for a closer look

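The genotype effect of 5 members differed between epidermis and whole skin by the test of the difference itself in all 12 libraries (edgeR). On the log2 scale, epidermis minus skin, the difference was -1.26 for Lamb3, -1.20 for Itga3, -1.15 for Col7a1, -0.98 for Itgb4 and 1.09 for Plec. The knockout lay further below the wild type in epidermis for Lamb3, Itga3, Col7a1 and Itgb4, and further below it in skin for Plec. The muscle, fibroblast and adipocyte marker sums were lower in Skin KO, and their part in these differences was not tested. The edgeR adjusted p ran from 0.0135 for Lamb3 to 0.0304 for Plec, and with the replicate block Plec did not pass (edgeR adjusted p = 0.0513). Only Lamb3 passed in all 20 alternatives. Itga3 and Col7a1 were each lost in 8 of them, Plec in 7 and Itgb4 in 5. A gap between single libraries was not looked for in this way, since each group holds 3 libraries.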

How the results depend on the processing

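Of 747 log2 fold changes of members under alternatives, 639 kept direction and side of the threshold, 39 lost and 25 gained the threshold, and 44 changed sign, none of them where either value passed. The count of members called in skin (4) was 9 with scaling to epithelial genes, 1 without the Skin KO libraries with Y-linked reads and 4 to 6 without single libraries. In epidermis (7) it was 5 with the share of Y-linked reads and 7 to 8 without single libraries. Between wild type tissues (4) it was 1 with epithelial scaling, 3 to 5 without single libraries and at most 6 over all alternatives. Between knockout tissues (1) it was 2 with DESeq2, without a filter on low counts or with effective lengths, 4 with epithelial scaling and 1 to 4 without single libraries. For the difference between tissues (5) it was 3 with epithelial scaling, 1 to 5 without single libraries and at most 6 over all alternatives. With the replicate block that count was 4, Plec being lost (edgeR adjusted p = 0.0513), and the block changed no other member's call. The cause of these shifts was not tested.

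The sign changes were small. In skin Itga6 was 0.002362 with limma-voom, 0.0976 with the share of Y-linked reads and 0.0779 without the Skin KO libraries with such reads, and Itga3 was 0.125 and 0.136 under these last settings. Without single libraries Itga6 ran from -0.23 to 0.0838 and Itga3 from -0.14 to 0.0726. In epidermis Plec was -0.001044 without a filter, -0.0128 with effective lengths, -0.14 with epithelial scaling, -0.002057 in 1 fit of all 12 libraries and from -0.18 to 0.16 without single libraries. Between wild type tissues Itga6 was 0.0757 with effective lengths, 0.002157 in the fit of all 12 and from -0.18 to 0.21 without single libraries, Lama3 was -0.20 with epithelial scaling, and Dst ran from -0.40 to 0.0418. Between knockout tissues Col17a1 was -0.0148 with limma-voom, -0.0114 with the replicate block, -0.29 with epithelial scaling and from -0.27 to 0.21 without single libraries, Lama3 was -0.0837 with epithelial scaling, and Dst ran from -0.37 to 0.0667. For the difference between tissues Dst was -0.00902 with limma-voom, -0.0435 with effective lengths, -0.0239 with the replicate block and from -0.27 to 0.31 without single libraries, and Lama3 was 0.11 with epithelial scaling and from -0.40 to 0.21. The differences in the 5 ratios and in Dst length moved by less than the spread between libraries, the alternatives for Plec to Dst, Col17a1 to Dst and Itga3 to Itga6 having been chosen after seeing the data. The sign changed for Dst length in epidermis (-98.8 bases, from -234 to 141 without single libraries), Col17a1 to Dst in epidermis (0.11, lowest -0.0510) and Itga3 to Itga6 in skin (0.00632, lowest -0.0545).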
